A study of Homo sapiens with 6 samples.

Results

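The transcription factor NRF2, its inhibitor KEAP1 and 7 classic antioxidant genes that NRF2 is known to switch on were examined in a human kidney cell line after knockdown of a long noncoding RNA (lncRNA). The 9 genes were the rows of the deposited count table named *NFE2L2*, *KEAP1*, *HMOX1*, *NQO1*, *GCLC*, *GCLM*, *TXNRD1*, *SRXN1* and *SLC7A11*, out of 26485 gene names in all. They were chosen by name, and each was found and had enough counts to be tested. RNA-seq was performed on 6 cultures of HEK293, an established line derived from human embryonic kidney. The KD group was 3 cultures in which *HSALNG0134318* was knocked down by transient transfection of a Smart Silencer, a mixture of siRNAs and antisense oligonucleotides against 1 transcript. The NC group was 3 control cultures, described as NC and with the genotype WT, and what the controls were transfected with is not given in the sources used here. The labels give culture numbers 1, 4 and 5 to KD replicates 1, 2 and 3, and culture numbers 10, 11 and 1 to NC replicates 1, 2 and 3. The study asked which genes respond when *HSALNG0134318*, a lncRNA within a chromosomal region tied to congenital kidney anomalies, is reduced.

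NRF2, encoded by *NFE2L2*, is a transcription factor of the CNC family that is controlled mainly through the stability of its protein. In unstressed cells KEAP1 holds NRF2 and presents it to a CUL3 ubiquitin ligase, which marks it for degradation. Oxidants and electrophiles modify KEAP1, and NRF2 then accumulates, pairs with a small MAF protein and binds antioxidant response elements near genes for glutathione synthesis, thioredoxin reduction, quinone detoxification and haem breakdown. In the kidney, this pathway is known for protecting tubule cells against oxidative injury. Only RNA was measured here, so neither the amount of NRF2 protein nor its location in the cell was examined.

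The core of an antioxidant response element, TGACNNNGC, was looked for on both strands of the promoter windows of these genes, because this is the sequence through which NRF2 is known to act. RefSeq windows of 300 bases (250 before to 50 after the start site, GRCh38.p14) were found for 7 of the 9 genes, the others being *HMOX1* and *SLC7A11*. Of their 10 windows, 4 held the core, against 4687 of all 35116 promoter windows (13.3%). These 4 windows belonged to *KEAP1*, *GCLM* and *TXNRD1*, and the windows of *NFE2L2*, *NQO1*, *GCLC* and *SRXN1* held no match. The matches are printed below along the strand of each gene, with the core in capitals between 16 bases on either side, so that they can be set beside the RNA values of the same genes.
KEAP1, chr19:10502801-10502841, minus strand: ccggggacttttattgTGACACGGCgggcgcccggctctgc
KEAP1, chr19:10502778-10502818, minus strand: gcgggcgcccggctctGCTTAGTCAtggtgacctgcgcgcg
GCLM, chr1:93909440-93909480, minus strand: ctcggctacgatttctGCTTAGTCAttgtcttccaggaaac
TXNRD1, chr12:104215664-104215704, plus strand: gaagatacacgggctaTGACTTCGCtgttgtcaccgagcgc
TXNRD1, chr12:104286914-104286954, plus strand: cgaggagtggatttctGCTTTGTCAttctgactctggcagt
The capitals of the first *KEAP1* line and the first *TXNRD1* line read as the core itself, and those of the other lines are its reverse complement. The core began 54 and 31 bases before the start site of *KEAP1* in 1 of its 2 windows, and 34 bases before that of *GCLM*. In *TXNRD1* it began 99 and 102 bases before the start sites of its 2 windows, and a further match in its first window is not shown. None of the 3 genes with a match was called lower or higher in KD cultures in the comparison that follows. A match of these letters is a description of the window and does not show that NRF2 binds there, and elements outside these windows were not searched.

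Counts per culture totalled between 13900965 and 16869948, and 14877 genes were tested with edgeR's quasi-likelihood test, with p-values adjusted over all of them by Benjamini-Hochberg and genes called at an adjusted p under 0.05. The values printed are normalized counts, that is, counts scaled to a common library size. NC replicate 2 stood apart from the other controls. Its root mean square differences in log2 CPM (counts scaled to a fixed library size) were 0.445 and 0.485, against 0.369 between the other 2 controls. NC replicate 3 lay nearer to the KD cultures, at 0.397 to 0.413, than to NC replicate 2 at 0.485. The KD cultures were 0.271 to 0.315 from each other. Results that turn on 1 culture are therefore given with and without it where these were computed. All 10 markers known from HEK293 had at least 10 counts in every culture, while the highest count of any marker of blood cells, endothelium, podocytes or hepatocytes was 7. The proximal tubule markers *LRP2*, *CUBN* and *SLC34A1* summed to 800 to 1172 normalized counts in NC and 556 to 679 in KD cultures, nearly all of it from *LRP2*, with *SLC34A1* at 0 to 2 counts. *LRP2*, the endocytic receptor megalin, was itself called lower in KD cultures (log2 fold change -0.70, SE 0.15, edgeR adjusted p = 0.012), together with the genes below. That call was lost without NC replicate 1 (edgeR adjusted p = 0.061), KD replicate 1 (0.068) or KD replicate 3 (0.053), and the part of this marker in the results was not tested. The fibroblast marker *COL1A1* had 571 to 699 counts, while *DCN*, a defining gene of fibroblasts, had 0 to 6. The targeted lncRNA was not measured here, so the knockdown itself was not checked in these libraries. The paper describes its knockdowns as 3 biologically independent experiments per group. The labels number the cultures but do not say how they were raised. The p-values measure the spread between these cultures, which may be technical in part.

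*NFE2L2*, *HMOX1* and *SRXN1* fell in KD cultures, while *KEAP1*, *NQO1*, *GCLC*, *GCLM*, *TXNRD1* and *SLC7A11* were not called in either direction. *HMOX1*, the enzyme that breaks down haem, had the largest difference, at 43.5% of its NC level, whereas *NFE2L2* stood at 70.0% and *SRXN1* at 70.8%. Thus 3 of 9 genes were called lower, against 4.64% of all tested genes, and 0 were called higher, against 5.40%. By unadjusted p under 0.05, 3 of the 9 were lower and 0 higher, against 13.8% and 13.1% of all tested genes, and DESeq2 and limma-voom also called 0 higher. The median log2 fold change of the 9 genes was -0.14, against -0.02 over all tested genes. KD and NC values did not overlap for the 3 called genes, each lower in KD cultures, and for *TXNRD1*, higher in KD cultures, while 15.8% of all tested genes were apart in the lower direction and 16.4% in the higher. Lists of vasculature development genes that the study drew from these same cultures hold *NFE2L2* and *HMOX1*, so their direction here is not independent evidence. In cultures measured in bulk, fewer cells of a type and less RNA per cell cannot be told apart.

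**Figure D1:**
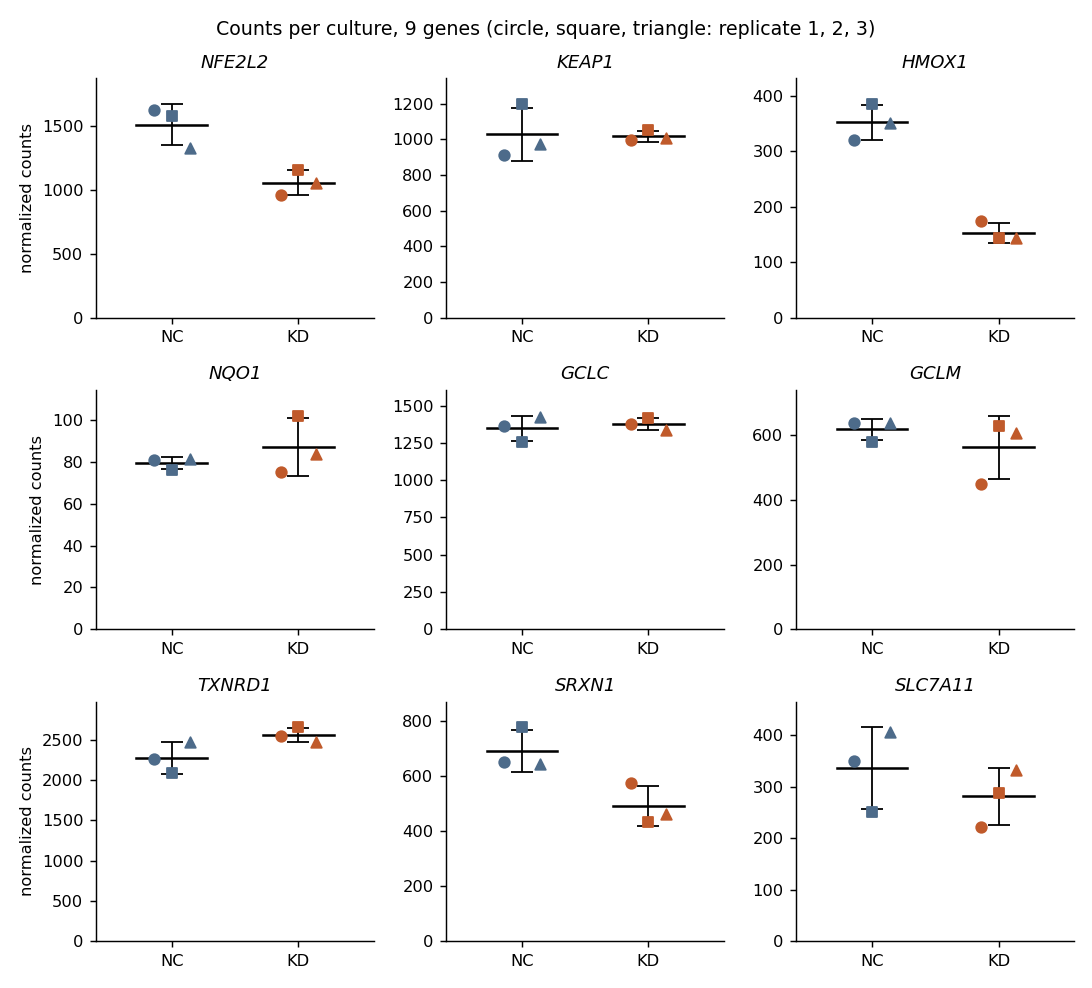
Normalized counts (y axes, starting at 0) of the 9 genes in each of the 3 NC and 3 KD cultures, with the mean as a line and the SD as a bar. *NFE2L2*, *HMOX1* and *SRXN1* lay lower in all 3 KD cultures than in any NC culture, *TXNRD1* lay higher by a narrow margin, and the other 5 genes overlapped.

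*NFE2L2* (ENSG00000116044.17, chromosome 2, minus strand, canonical transcript at 177230308 to 177264727 in hg38, as for all gene positions here) encodes NRF2. Its normalized counts were 1629, 1578 and 1329 in NC replicates 1, 2 and 3, and 962, 1159 and 1054 in KD replicates 1, 2 and 3. The lowest control, NC replicate 3, still lay above the highest KD culture. The mean fell from 1512 ± 160 to 1058 ± 98.6 (SD, n = 3 each), a log2 fold change of -0.51 (SE 0.11, 95% interval -0.75 to -0.28, edgeR adjusted p = 0.013). This call was kept in 11 of 14 alternatives. It was lost without NC replicate 1 (edgeR adjusted p = 0.061), without KD replicate 1 (0.073) and without KD replicate 3 (0.072), although the log2 fold change stayed between -0.59 and -0.45 when any 1 culture was left out. In the annotation, exons of *NFE2L2* share 3509 bases (23.4% of its exon bases) with *HNRNPA3*, which encodes an RNA-binding protein, on the opposite strand. They also share 2037 bases (13.6%) with a lncRNA on the same strand that the count table does not name. The libraries were stranded, but the strand setting of the counting is not given in the sources used here. *HNRNPA3* itself had a log2 fold change of 0.16 (SE 0.11, edgeR adjusted p = 0.36).

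*KEAP1* (ENSG00000079999.14, chromosome 19, minus strand, 10486125 to 10503558) encodes the adaptor that keeps NRF2 short-lived. Its normalized counts were 910, 1197 and 974 in NC and 997, 1054 and 1005 in KD replicates, and the KD values lay inside the range of the controls. The means were 1027 ± 150 and 1018 ± 30.8 (SD, n = 3 each), with a log2 difference of -0.01 (SE 0.11, 95% interval -0.26 to 0.24, edgeR adjusted p = 0.96). Without NC replicate 2 the log2 difference was 0.11. Since *NFE2L2* fell and *KEAP1* was not called, their ratio within each culture was computed, a measure chosen after their values were seen. Raw counts of *KEAP1* per count of *NFE2L2* were 0.559, 0.758 and 0.733 in NC and 1.04, 0.909 and 0.953 in KD replicates, with no overlap. The mean ratio was 0.683 ± 0.109 in NC and 0.966 ± 0.0645 in KD cultures (SD, n = 3 each, exact permutation test on log2 ratios, two-sided p = 0.1, the smallest that 3 against 3 can give).

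*HMOX1* (ENSG00000100292.18, chromosome 22, plus strand, 35380361 to 35394214) encodes haem oxygenase 1, the inducible enzyme that opens haem into biliverdin, carbon monoxide and iron. It had normalized counts of 321, 385 and 351 in NC replicates and 174, 143 and 143 in KD replicates. Every KD culture was far below every control, and the spread within each group was small beside the gap. The mean fell from 352 ± 31.7 to 153 ± 17.7 (SD, n = 3 each), a log2 fold change of -1.20 (SE 0.14, 95% interval -1.51 to -0.89, edgeR adjusted p = 0.00056). The call held in all 14 alternatives, where the adjusted p ran from 4.7e-10 to 0.0063, and the log2 fold change stayed between -1.30 and -1.13 with any 1 culture left out. The 95% interval of *HMOX1* did not reach that of *NFE2L2*. Raw counts of *HMOX1* per count of *NFE2L2* were 0.197, 0.244 and 0.264 in NC and 0.18, 0.123 and 0.135 in KD replicates. The mean of this ratio was 0.235 ± 0.0341 in NC and 0.146 ± 0.0301 in KD cultures (SD, n = 3 each, exact permutation test on log2 ratios, two-sided p = 0.1, the smallest possible), and it too was chosen after the values were seen.

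*SRXN1* (ENSG00000271303.2, chromosome 20, minus strand, 646615 to 653200) encodes sulfiredoxin, which restores overoxidized peroxiredoxins. Its normalized counts were 651, 776 and 643 in NC and 572, 433 and 462 in KD replicates. The groups did not overlap, and KD replicate 1 lay closest to the controls. The mean fell from 690 ± 74.9 to 489 ± 73.2 (SD, n = 3 each), a log2 fold change of -0.50 (SE 0.13, 95% interval -0.79 to -0.21, edgeR adjusted p = 0.038). The call was kept in 11 of 14 alternatives and lost without NC replicate 1 (edgeR adjusted p = 0.079), KD replicate 2 (0.18) or KD replicate 3 (0.16). In the annotation, 90.7% of the exon bases of *SRXN1* are shared with a gene on the same strand that the count table does not name separately, and how reads were divided between them is not given in the sources used here.

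*TXNRD1* (ENSG00000198431.18, chromosome 12, plus strand, 104215779 to 104350307) encodes cytosolic thioredoxin reductase, which passes electrons from NADPH to thioredoxin. The normalized counts of *TXNRD1* were 2267, 2088 and 2475 in NC and 2551, 2660 and 2478 in KD replicates, and the lowest KD culture only just exceeded the highest control. The log2 difference was 0.17 (SE 0.09, 95% interval -0.03 to 0.37, edgeR adjusted p = 0.25), and it was called in 0 of 14 alternatives. Of the 9 genes it was the one with the highest log2 value, opposite in sign to that of *SRXN1*, which also serves the thioredoxin and peroxiredoxin system.

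*GCLC* (ENSG00000001084.13, chromosome 6, minus strand, canonical transcript at 53497341 to 53545101) and *GCLM* (ENSG00000023909.10, chromosome 1, minus strand, 93885199 to 93909456) encode the catalytic and modifier subunits of glutamate-cysteine ligase, the rate-limiting enzyme of glutathione synthesis. *GCLC* had normalized counts of 1362, 1255 and 1425 in NC and 1378, 1414 and 1338 in KD replicates, with full overlap. Its log2 difference was 0.03 (SE 0.09, 95% interval -0.16 to 0.23, edgeR adjusted p = 0.86). *GCLM* had 637, 579 and 637 in NC and 449, 629 and 608 in KD replicates, so that KD replicate 1 alone lay below the controls. The log2 difference of *GCLM* was -0.14 (SE 0.14, 95% interval -0.43 to 0.16, edgeR adjusted p = 0.56), and without KD replicate 1 it was 0.00. The same culture stood out in the balance of the subunits. Raw counts of *GCLC* per count of *GCLM* were 2.14, 2.17 and 2.24 in NC and 3.07, 2.25 and 2.2 in KD replicates (n = 3 each, exact permutation test on log2 ratios, two-sided p = 0.2, a ratio chosen after the values were seen).

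*SLC7A11* (ENSG00000151012.13, chromosome 4, minus strand, 138164097 to 138242349) encodes the cystine importer xCT, which supplies cysteine for glutathione. The normalized counts of *SLC7A11* were 350, 250 and 407 in NC and 222, 288 and 333 in KD replicates, and both groups spread widely and overlapped. The log2 difference was -0.26 (SE 0.19, 95% interval -0.68 to 0.17, edgeR adjusted p = 0.43). It ran from -0.43 without NC replicate 2 (edgeR adjusted p = 0.066) to -0.09 without NC replicate 3. Its antisense partner *SLC7A11-AS1*, which shares 865 bases of its exons, had 0 to 7 counts per culture.

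*NQO1* (ENSG00000181019.13, chromosome 16, minus strand, 69706996 to 69726668) encodes a quinone reductase that is often used as a marker of NRF2 activity. Its normalized counts were 80.6, 75.9 and 81.3 in NC and 75.2, 102 and 83.7 in KD replicates. It had the fewest counts of the 9 genes, and its groups overlapped. The log2 difference was 0.13 (SE 0.19, 95% interval -0.29 to 0.56, edgeR adjusted p = 0.70), and without KD replicate 2 it was 0.00. At this depth, a change as large as that of *HMOX1* lay outside the interval of *NQO1*, as it did for *KEAP1*, *GCLC*, *GCLM*, *TXNRD1* and *SLC7A11*. A fall as large as the point estimate of *NFE2L2* lay inside the interval of *SLC7A11* only.

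**Figure D2:**
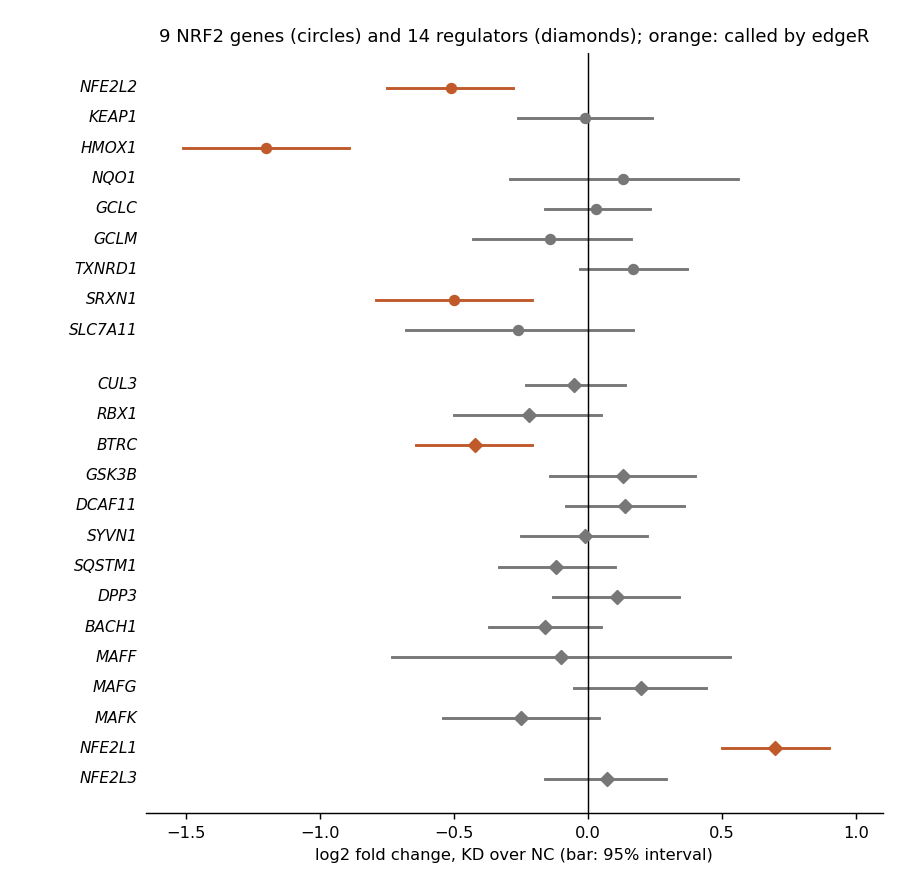
Log2 fold changes of KD over NC (x axis) with 95% intervals from edgeR for the 9 genes (circles) and for 14 regulators of NRF2 (diamonds), with called genes in orange. *HMOX1* stands at -1.20 and *NFE2L1* at 0.70, while the intervals of *KEAP1*, *NQO1*, *GCLC*, *GCLM*, *TXNRD1* and *SLC7A11* cross 0.

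**Figure D3:**
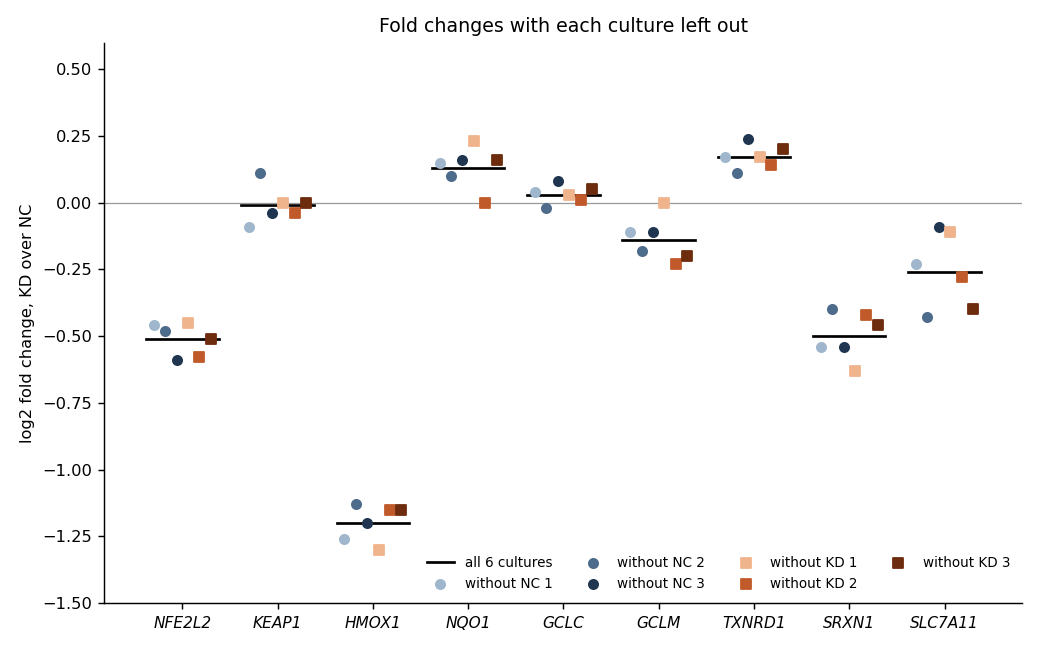
Log2 fold changes of KD over NC (y axis) for the 9 genes with all 6 cultures (lines) and with each culture left out in turn (circles for NC, squares for KD). *HMOX1* stays between -1.30 and -1.13, *NFE2L2* between -0.59 and -0.45 and *SRXN1* between -0.63 and -0.40, whereas *KEAP1* and *GCLC* cross 0 and *NQO1* and *GCLM* reach 0.00.

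The levels of the 9 genes were next compared with each other, as normalized counts per kilobase (kb) of exon, since longer transcripts collect more reads. In NC cultures, *TXNRD1* had the highest level at 339 ± 28.9 per kb (SD, n = 3), followed by *KEAP1* at 287, *SRXN1* at 273, *GCLC* at 156, *HMOX1* at 153, *GCLM* at 114, *NFE2L2* at 101, *SLC7A11* at 34.8 and *NQO1* at 26.7 ± 0.994. In this order the ranges of neighbours overlapped between *TXNRD1* and *KEAP1*, *KEAP1* and *SRXN1*, *GCLC* and *HMOX1*, *GCLM* and *NFE2L2*, and *SLC7A11* and *NQO1*, so these places cannot be told apart. In KD cultures *HMOX1* moved from the fifth place to the seventh, at 66.4 ± 7.68 per kb (SD, n = 3), and overlapped with *NFE2L2* at 70.7 ± 6.58. *TXNRD1* at 382, *KEAP1* at 285 and *SRXN1* at 193 kept the first places, and *NQO1* at 29.3 and *SLC7A11* at 29.1 were the lowest and overlapped. The place of *NFE2L2* depended on the gene model. All its annotated exons cover 14975 bases, whereas its canonical transcript has 2446. Per kb of canonical transcript, *NFE2L2* came first in NC cultures at 618 ± 65.5 (SD, n = 3), overlapping with *TXNRD1* at 590 ± 50.3, and second in KD cultures at 433 after *TXNRD1* at 664. The order of *SRXN1* and *GCLC* also depended on the gene model. Per kb of canonical transcript, *GCLC* at 356 in NC and 364 in KD cultures came before *SRXN1* at 273 and 193, and their ranges were apart. The move of *HMOX1* depended on the gene model too. Per kb of canonical transcript it went only from place 6 in NC cultures (227) to place 7 in KD cultures (98.5), where it overlapped with *GCLM* (115).

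**Figure D4:**
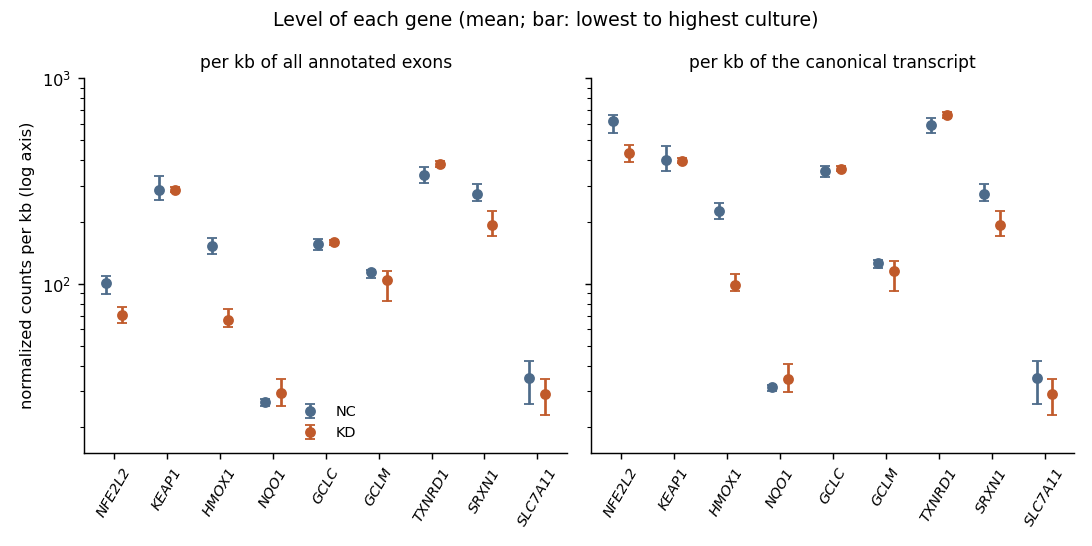
Level of each of the 9 genes in NC and KD cultures as normalized counts per kb (log axis), per kb of all annotated exons on the left and of the canonical transcript on the right, with points for means and bars from the lowest to the highest culture. *HMOX1* drops from 153 to 66.4 per kb of exons, and *NFE2L2* in NC cultures stands at 101 per kb of exons and at 618 per kb of its canonical transcript.

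The profile of *NFE2L2* across the 6 cultures was compared with that of 11191 genes outside the lists with a mean of at least 100 counts. Likeness was measured on log2 CPM centred on each gene's mean, as the root mean square of the differences between both profiles. The closest genes were *PLEKHA3* (0.0384), *MFAP3* (0.0509) and *YPEL2* (0.0521), whose log2 differences between KD and NC were -0.57, -0.56 and -0.48. The other 8 genes of the pathway lay farther away, from *SRXN1* at 0.218 and *GCLM* at 0.233 to *TXNRD1* at 0.381 and *HMOX1* at 0.398. The closest genes were picked from 11191 for their likeness, and these 8 were not. The comparison therefore cannot show whether *NFE2L2* moved with its pathway. The measure also grows with the size of a change, and *HMOX1* fell further than *NFE2L2* (log2 fold changes -1.20 and -0.51). The distances are descriptions over 6 cultures of 2 groups, and the same values that gave the fall of *NFE2L2* chose its closest genes.

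The factors that hold, degrade or accompany NRF2 were followed in a list of 14 genes, all of them tested. Of these, 1 fell, 1 rose and 12 were not called, beside 4.64% lower and 5.40% higher over all tested genes, and the median log2 fold change was -0.03 against -0.02. *NFE2L1*, which encodes NRF1, the relative of NRF2 known for driving proteasome genes and binding the same kind of element, rose. It had normalized counts of 3266, 3208 and 3738 in NC and 5694, 5560 and 5319 in KD replicates, with a wide gap between the groups. The mean rose from 3404 ± 291 to 5524 ± 190 (SD, n = 3 each), a log2 fold change of 0.70 (SE 0.09, 95% interval 0.50 to 0.90, edgeR adjusted p = 0.0010), and the call held in all 14 alternatives. *NFE2L1* and *NFE2L2*, both CNC factors, thus moved in opposite directions. *BTRC*, which encodes the adaptor that degrades NRF2 independently of KEAP1 after phosphorylation by GSK3B, had 1317, 1275 and 1196 in NC and 1040, 878 and 904 in KD replicates. It fell from 1262 ± 61.8 to 941 ± 86.9 (SD, n = 3 each), a log2 fold change of -0.42 (SE 0.10, edgeR adjusted p = 0.022). This call was lost without NC replicate 1 (edgeR adjusted p = 0.078), KD replicate 2 (0.13) or KD replicate 3 (0.12).

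The partners of KEAP1 in the ubiquitin ligase were not called, *CUL3* with a log2 difference of -0.05 and *RBX1* with -0.22. The same held for other ligase and kinase genes that act on NRF2, *GSK3B* at 0.13, *DCAF11* at 0.14 and *SYVN1* at -0.01. *SQSTM1* and *DPP3*, whose products compete with NRF2 for KEAP1, stood at -0.12 and 0.11. *BACH1*, the repressor that keeps *HMOX1* silent until haem displaces it, had 1312, 1196 and 1272 normalized counts in NC and 1033, 1176 and 1171 in KD replicates. Its groups did not overlap, yet its log2 difference of -0.16 (SE 0.09, 95% interval -0.37 to 0.05) was not called by edgeR (adjusted p = 0.30). The small MAF partners stood at -0.10 (*MAFF*), 0.20 (*MAFG*) and -0.25 (*MAFK*), and the third CNC gene, *NFE2L3*, at 0.07, with none of them called.

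Of 33 other genes commonly listed as NRF2 targets, 26 could be tested. The remaining 7 had too few counts, namely *GPX2*, *AKR1B10*, *AKR1C1*, *AKR1C2*, *AKR1C3*, *UGT1A6* and *ABCC3*, so that several classic detoxification targets gave no comparison. Of the 26, 1 fell, 1 rose and 24 were not called, close to the 4.64% lower and 5.40% higher of all tested genes, and the median log2 fold change was -0.06 against -0.02. *GSR*, glutathione reductase, fell from 1631 ± 80.1 to 1275 ± 68.6 normalized counts (SD, n = 3 each, log2 fold change -0.36, SE 0.09, edgeR adjusted p = 0.028). This call was lost in 5 of 14 alternatives, with the replicate number as a block (edgeR adjusted p = 0.074) and without NC replicate 1 (0.074), KD replicate 1 (0.07), KD replicate 2 (0.12) or KD replicate 3 (0.17). *ME1*, malic enzyme, which supplies NADPH, had 507, 551 and 706 in NC and 1007, 1024 and 991 in KD replicates. It rose from 588 ± 104 to 1008 ± 16.8 (SD, n = 3 each, log2 fold change 0.78, SE 0.13, edgeR adjusted p = 0.0033), and the call held in all 14 alternatives. The lowest log2 value of the list was that of *CBR1*, a carbonyl reductase, at -0.46, which was not called by edgeR (adjusted p = 0.092) and was called in 3 of 14 alternatives. Without NC replicate 2 the log2 difference of *CBR1* was -0.23 (edgeR adjusted p = 0.15). *FECH*, the ferrochelatase that completes haem, had 652, 741 and 1010 in NC and 1066, 1093 and 1214 in KD replicates, and it is named here after its values were seen. Its groups did not overlap, and its log2 difference of 0.49 (SE 0.15) was not called by edgeR (adjusted p = 0.057) but was called in 8 of 14 alternatives, where the list then had 2 genes called higher.

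Among 27 antioxidant enzymes outside the classic NRF2 list, 26 were tested, *GPX7* having too few counts. Of these 26, 2 fell, 1 rose and 23 were not called, beside 4.64% lower and 5.40% higher over all tested genes, and the median log2 fold change was -0.18 against -0.02. *GPX8*, a peroxidase of the endoplasmic reticulum, fell from 825 ± 89.8 to 460 ± 29.1 normalized counts (SD, n = 3 each, log2 fold change -0.84, SE 0.12, edgeR adjusted p = 0.0014). *PRDX6*, a cytosolic peroxiredoxin, fell from 2723 ± 196 to 1781 ± 30.3 (SD, n = 3 each, log2 fold change -0.61, SE 0.09, edgeR adjusted p = 0.0016). *PRDX4*, the peroxiredoxin of the endoplasmic reticulum, rose from 621 ± 129 to 1382 ± 173 (SD, n = 3 each, log2 fold change 1.15, SE 0.15, edgeR adjusted p = 0.0011). All 3 calls held in all 14 alternatives. In total 21 of the 26 log2 values were below 0, as were 52.7% of those of all tested genes. At an unadjusted p under 0.05, 8 were lower and 2 higher, against 13.8% and 13.1% of all tested genes. Several signs turned on 1 culture. With a culture left out, *SOD1* reached 0.09, *CAT* 0.01, *GPX1* 0.04 and *TXNRD2* 0.08. Likewise *GLRX* reached 0.04, *MSRB1* 0.04 and *MSRB2* 0.11. In the other direction, *GLRX2* reached -0.19 and *MSRB3* -0.08. NC replicate 2 was the highest control for each gene that rose above 0 except *CAT*. The count of 21, the median and the unadjusted counts were not computed without NC replicate 2.

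A pair of further lists was read because other regulators are known to act on members of the NRF2 group, ATF4 on *SLC7A11* and heat shock factor 1 on *HMOX1*. Of 18 genes of the ATF4 and amino acid response, 1 fell, 1 rose and 16 were not called, close to the 4.64% and 5.40% of all tested genes, with a median of 0.00. *CHAC1*, an enzyme that degrades glutathione, fell from 106 ± 35.3 to 44.7 ± 11.4 normalized counts (SD, n = 3 each, log2 fold change -1.24, SE 0.29, edgeR adjusted p = 0.020), a call lost without NC replicate 1 (edgeR adjusted p = 0.085), KD replicate 2 (0.092) or KD replicate 3 (0.091). *SLC7A1*, a transporter of cationic amino acids, rose from 1491 ± 75.1 to 2073 ± 60.9 (SD, n = 3 each, log2 fold change 0.48, SE 0.08, edgeR adjusted p = 0.0057).

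Of 11 heat shock genes, 0 were called lower and 1 higher by edgeR, against 4.64% and 5.40% of all tested genes, with a median of -0.30 against -0.02. At an unadjusted p under 0.05, 3 were lower and 2 higher, against 13.8% and 13.1% of all tested genes. DESeq2 called 1 lower and limma-voom 0. *HSPD1*, the mitochondrial chaperonin, rose from 9806 ± 2230 to 15625 ± 625 normalized counts (SD, n = 3 each, log2 fold change 0.67, SE 0.14, edgeR adjusted p = 0.013), and this call was lost without NC replicate 1 (edgeR adjusted p = 0.061), KD replicate 1 (0.066) or KD replicate 2 (0.054). *HSPA1A* is an inducible HSP70 gene with a near-identical copy, *HSPA1B*. How reads that match both were counted is not given in the sources used here, so its counts are uncertain. *HSPA1A* had 2832, 3963 and 1294 in NC and 1984, 1135 and 1054 in KD replicates. The groups overlapped, with KD replicate 1 at 1984 above NC replicate 3 at 1294. The log2 difference of *HSPA1A*, -0.95, was not called by edgeR (adjusted p = 0.21). Without NC replicate 3 it was -1.28 (edgeR adjusted p = 0.028), and without NC replicate 2 it was -0.57 (0.56). Without KD replicate 1 it was -1.30 (edgeR adjusted p = 0.17). In the fit without NC replicate 3, 4 of the 11 genes were called lower and 2 higher. These were the highest counts with any 1 culture left out, which ran from 0 to 4 lower and from 0 to 2 higher. The fit without NC replicate 3 called 994 lower and 1087 higher among all tested genes, against 690 and 804 with all cultures. Calls thus also rose over all genes. Without NC replicate 2, 1238 of all tested genes were called lower and 1274 higher, yet 0 and 1 of the 11 heat shock genes. The share of all genes called was not computed for these fits, so 4 of 11 cannot be weighed against it. For *HMOX1*, NC replicate 3 at 351 lay between the other 2 controls. NC replicate 2 (385) and KD replicate 1 (174) were the highest of their groups for *HMOX1*, as they were for *HSPA1A*. They were also the highest for genes that were not called, among them *HSF1* (1043 and 951), *RBX1* (1036 and 880) and *SQSTM1* (2968 and 2508). They were not the highest for *NFE2L2*. This order is therefore not particular to *HMOX1* and *HSPA1A*. A link between *HMOX1* and the heat shock genes was not tested.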

How the data were processed

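RNA-seq was measured in 3 KD and 3 NC cultures of HEK293, grouped by their labels. The authors deposited raw counts of reads per gene, without normalization. The submitters' processing notes name FastQC 0.11.9, Trim Galore 0.6.6, STAR 2.7.9a, featureCounts 2.0.1 and build hg38, with polyA RNA and a stranded preparation. The annotation, the strand setting and the treatment of multi-mapping reads are not given in the sources used here, so overlapping genes are uncertain.

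The robust quasi-likelihood F test of edgeR 4.0.16 in R 4.3.3 was fitted to all 6 cultures without a block, on the 14877 of 26485 genes that filterByExpr kept and with TMM factors, with Benjamini-Hochberg adjustment over all tested genes and calls under 0.05. The biological coefficient of variation was 12.4%. Counts were normalized to the mean effective library size, 15043151. Exon lengths and positions were taken from GENCODE release 44 (hg38), with 23161 gene names matched by symbol, 1327 by synonym and 1997 unmatched. Promoter windows came from RefSeq. Python 3.11.15, pandas 2.3.3 and matplotlib 3.10.9 were used.

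The 9 genes and the gene lists (regulators, other targets, other antioxidant enzymes, ATF4, heat shock and cell markers) were chosen with earlier results of these data known. The text names all 9 genes and all regulators, at most 6 called genes of each other list by smallest p with its lowest and highest log2 value, and the 3 genes nearest to *NFE2L2*. *HSPA1B*, *FECH*, antioxidant enzymes whose sign turned on 1 culture, genes that overlap the 9 and untested genes are named beyond this rule. The 14 alternatives were 2 other scalings (DESeq2 size factors, plain library sizes), testing unfiltered genes or only genes with 10 counts or more in each culture, a replicate block, the DESeq2 1.42.0 Wald test, limma-voom (limma 3.58.1), a loess correction for GC content and length (span 0.3, values for 97.2% of tested genes), and each culture left out. The canonical transcript length was added after seeing the data. The edgeR fits with and without the block, the DESeq2 test and limma-voom were tested on simulated data.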

Additional observations from a re-analysis of the deposited data

How the results depend on the processing

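Of the 9 genes, *HMOX1* kept its call in all 14 alternatives, *NFE2L2* and *SRXN1* in 11 each, and the other 6 were called in none. The number of the 9 called lower was 3 and ranged from 1 to 3 when a culture was left out, with 1 (*HMOX1*) without NC replicate 1 and without KD replicate 3, while 0 were called higher throughout. Over all genes, 690 were called lower and 804 higher, against 233 to 1238 and 289 to 1274 with a culture left out, the highest without NC replicate 2, and 1453 and 1300 after correction for GC content and length. That correction called 4 of the 26 tested other targets and 8 of the 26 tested other antioxidant enzymes lower, against 1 and 2. Calls lower over all genes went from 690 to 1453 of 14877 in the same fit, so a rise was not particular to these lists. Log2 differences that were not called changed sign or reached 0 for *KEAP1* (from -0.09 to 0.11 with a culture left out, 0.00 without KD replicate 1), *NQO1* (0.00 without KD replicate 2), *GCLC* (-0.02 without NC replicate 2), *GCLM* (from -0.23 to 0.00, the latter without KD replicate 1), *CUL3* (0.01 with the GC and length correction), *SYVN1* (from -0.07 to 0.08, and 0.02 without KD replicate 3) and *MAFF* (from -0.34 to 0.06). Some of the other antioxidant enzymes also changed sign with a culture left out, as given above. The cause of these changes was not tested. The highest level per kb in NC cultures was 12.7 times the lowest by all exons, 18.3 by the longest and 19.7 by the canonical transcript. Cultures with the same replicate number did not deviate together (correlations of -0.199, -0.112 and -0.044), so the numbers were not taken as pairs. With the replicate number as a block, the 3 calls stood (edgeR adjusted p = 0.0097 for *NFE2L2*, 1.8e-05 for *HMOX1* and 0.035 for *SRXN1*), 0 were called higher, and 619 genes were lower and 714 higher. With 3 cultures a group, log2 changes of the 9 genes had standard errors of 0.09 to 0.19, which limits what could be called.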
